A study of Mus musculus with 6 samples.

Results

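The 10 genes described here store, import, export or release iron, and were followed from the contralateral cortex to the chronic stroke infarct. They are the ferritin chains *Ftl1* and *Fth1*, the heme-degrading enzyme *Hmox1*, the iron exporter *Slc40a1*, the ferroxidase *Cp*, the transferrin receptor *Tfrc*, transferrin (*Trf*), the hormone gene *Hamp*, and the metal transporters *Slc11a1* and *Slc11a2*. These 10 genes were chosen by name, and all 10 were found among the 46078 gene identifiers counted. In infarcts, 7 of the 10 were upregulated and 0 were downregulated. Of all 15554 tested genes, 25.7% were upregulated and 20.9% downregulated. *Trf* is among the 7, on only 3 to 23 reads per library. *Tfrc* and *Slc11a2* were not called in either direction, and *Hamp* had too few reads to test.

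Iron is held in a safe form inside ferritin, a hollow shell built from heavy chains, which oxidize iron, and light chains, which help form its mineral core. Cells take up iron bound to transferrin through the transferrin receptor, move it out of endosomes through members of the SLC11 family, and release it through ferroportin, the product of *Slc40a1*, with the help of ferroxidases such as ceruloplasmin. Macrophages that engulf red blood cells or cell debris free iron from heme with heme oxygenase, and the brain relies on its own glia and vessel cells for much of this handling because plasma proteins are largely kept out. Hepcidin, encoded by *Hamp* and made mainly by the liver, removes ferroportin from the cell surface. Iron regulatory proteins also control several of these genes by binding a short hairpin, the iron-responsive element, in their mRNA.

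Bulk RNA-Seq had been performed on 6 libraries from male wild type C57BL/6J mice, labeled 3 months of age, at 7 weeks after a stroke made by distal middle cerebral artery occlusion plus hypoxia. Of the libraries, 3 came from infarcts (n = 3) and 3 came from the matching contralateral cortex (n = 3), so the controls were tissue opposite the infarct in mice with a stroke and not tissue of naive mice. No drug treatment is named in the labels. Infarcts had been recognized by eye and cut out after exsanguination and saline perfusion, and the labels do not say whether an infarct and a cortex with the same number came from 1 mouse, so the p-values below measure the spread between these samples.

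Infarct libraries held 12146959 to 13427057 reads on genes and contralateral libraries held 11943570 to 19933962. Levels are CPM, the counts of a gene per 1e6 reads on genes after TMM scaling. The makeup of the tissue differed strongly between regions: summed over 9 neuron markers, levels were 513, 721 and 1410 CPM in infarcts 1, 2 and 3 against 7840 to 9040 CPM in contralateral cortices, and summed over 12 macrophage markers they were 10600, 8860 and 6510 CPM against 173 to 229 CPM. In bulk tissue, fewer cells of a type and less RNA per cell cannot be told apart, and this holds for every difference given here. A gene was called when edgeR's quasi-likelihood test gave a Benjamini-Hochberg adjusted p below 0.05 over 15554 tested genes and the fold change exceeded 2 in either direction.

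The iron-responsive elements of these genes are shown first, because they are a known site of control by iron in these mRNAs. Annotated transcripts were searched on their own strand for a bulged C, a stem of 5 base pairs and the loop CAGTGN, which is in capitals below. The 5′ UTR held the element with all 5 pairs in 3 genes, at chr7:45459779-45459807 (minus strand) in *Ftl1*, chr19:9982732-9982760 (plus strand) in *Fth1* and chr1:45925465-45925493 (minus strand) in *Slc40a1*, in build GRCm38:
Ftl1: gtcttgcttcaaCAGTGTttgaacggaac
Fth1: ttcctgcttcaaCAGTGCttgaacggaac
Slc40a1: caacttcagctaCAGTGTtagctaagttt

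In the 3′ UTR, *Tfrc* carried 4 elements with all 5 pairs, at chr16:32631219-32631247, chr16:32631598-32631626, chr16:32631663-32631691 and chr16:32631710-32631738 (plus strand), printed in that order. One element of *Slc11a2*, with 4 of the 5 pairs, was found on an annotated transcript at chr15:100395153-100395181 (minus strand):
Tfrc 1: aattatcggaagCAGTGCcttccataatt
Tfrc 2: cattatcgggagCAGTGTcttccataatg
Tfrc 3: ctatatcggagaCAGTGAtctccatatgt
Tfrc 4: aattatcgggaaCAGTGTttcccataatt
Slc11a2: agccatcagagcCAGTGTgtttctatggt

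A 5-pair match occurred in the 5′ UTR of 28 of 20247 genes (0.138%) and in the 3′ UTR of 125 of 20627 genes (0.606%). With 4 pairs allowed, 4.11% of genes had a 3′ UTR match. No match was found in annotated UTRs of *Hmox1*, *Trf*, *Cp*, *Hamp* or *Slc11a1*. All 3 genes with a 5′ element were called higher in infarcts, and neither of the 2 genes with a 3′ element was called. All 4 tested genes without a match, *Hmox1*, *Trf*, *Cp* and *Slc11a1*, were called higher as well. Of all tested genes, 25.7% were called higher. The counts are per gene and do not separate the transcripts of *Slc11a2*.

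Of the 10 genes, 9 passed the filter on low counts, 7 were called higher, and the median log2 fold change of the 9 was 2.13. Among all 15554 tested genes, 25.7% were called higher, 20.9% were called lower, and the median log2 fold change was 0.03. Infarct and contralateral values did not overlap for 8 of the 9 tested genes, beside 72.3% of all tested genes. None of the 9 was called lower by edgeR, DESeq2 or limma voom, and 1 of them, *Tfrc*, was lower at an unadjusted edgeR p below 0.05. By the adjusted p alone, without the fold threshold, 34.2% of all tested genes were higher and 30.8% lower, and of the 9 iron genes 7 were higher and 0 lower.

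**Figure D1:**
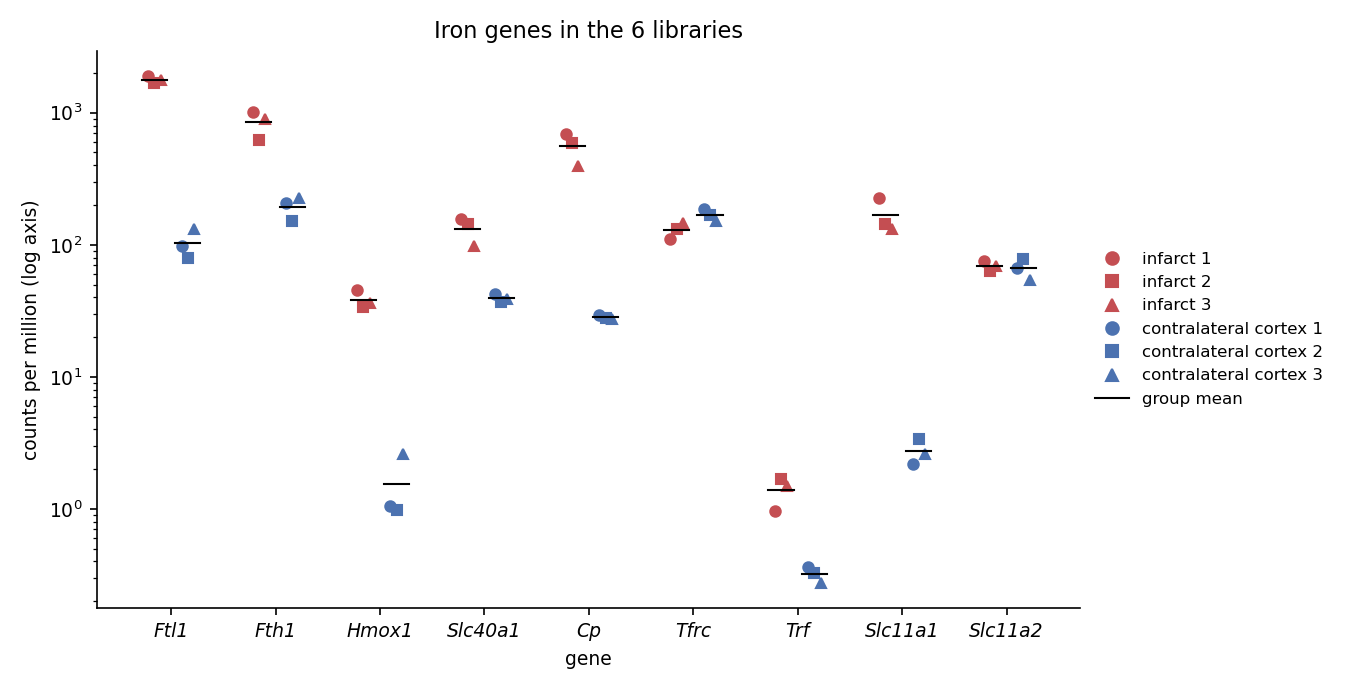
CPM, on a log axis, of the 9 tested iron genes in each of the 3 infarct and 3 contralateral cortex libraries; each point is 1 library and each black line a group mean. Infarct points lie above contralateral points for 7 genes, *Tfrc* lies lower in infarcts without overlap, and *Slc11a2* overlaps.

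**Figure D2:**
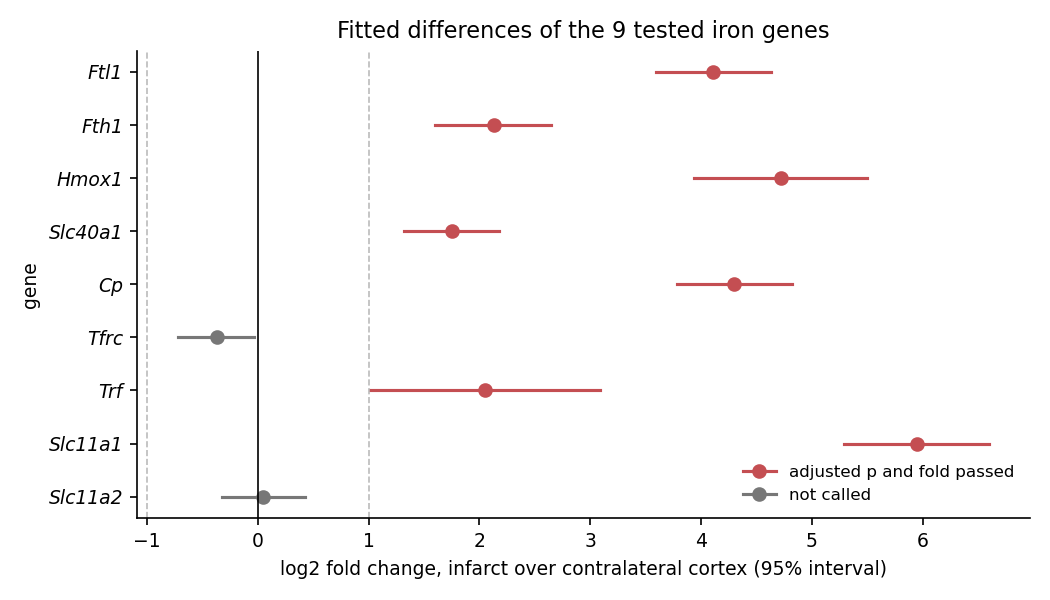
Fitted log2 fold change of infarct over contralateral cortex (point) with its 95% interval (line) for the 9 tested iron genes; dashed lines mark a fold change of 2 in either direction. The values run from -0.37 for *Tfrc* to 5.95 for *Slc11a1*, and the intervals of *Tfrc* and *Slc11a2* stay inside the dashed lines.

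Both ferritin chains were upregulated, the light chain more steeply than the heavy chain. *Ftl1* (chr7:45457944-45459884), the light chain, measured 1895, 1667 and 1782 CPM in infarcts 1 to 3 and 97.63, 79.96 and 132 CPM in contralateral cortices 1 to 3. The lowest infarct lay more than 10-fold above the highest contralateral cortex, and the fitted difference was 17.3-fold (log2 fold change 4.11, SE 0.23, edgeR adjusted p = 5.23e-07). Ranked per kilobase of exon among 15499 tested genes with a known length, *Ftl1* stood at rank 17 in infarcts and rank 405 in contralateral cortices.

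*Fth1* (chr19:9980598-9985098), the heavy chain with ferroxidase activity, measured 1018, 623.1 and 902.3 CPM in infarcts, beside 207.5, 151.3 and 224.2 CPM in contralateral cortices. Every infarct exceeded every contralateral cortex, with infarct 2 the lowest of the infarcts, and *Fth1* rose 4.36-fold (log2 fold change 2.13, SE 0.23, edgeR adjusted p = 3.27e-05). Its rank per kilobase moved from 615 to 80. Reads of both chains together made up 0.301%, 0.249% and 0.293% of gene counts in infarcts 1 to 3, beside 0.0293%, 0.0214% and 0.0323% in contralateral cortices; the 95% Wilson intervals, which cover counting error only, ran from 0.247% to 0.304% over the infarcts and from 0.0207% to 0.0333% over the contralateral cortices.

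Ferritin genes have processed copies elsewhere in the genome, and reads that fit several places were not assigned to a gene. The 13 annotated ferritin copies and pseudogenes held 26 to 34 counts per infarct library and 2 to 14 per contralateral library, against 22705 to 26112 counts of *Ftl1* in infarcts. Multi-mapped reads were 14.1% to 18.2% of each library, and how many of them came from ferritin mRNA was not tested.

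*Hmox1* (chr8:75093621-75100589) encodes the inducible heme oxygenase, which opens the heme ring to release iron, carbon monoxide and biliverdin. It measured 45.16, 33.78 and 36.45 CPM in infarcts, beside 1.045, 0.9767 and 2.584 CPM in contralateral cortices. Heme oxygenase mRNA was thus near the low end of detection in contralateral cortices, at 15 to 28 counts per library, and well counted in infarcts, at 460 to 567. The difference was 26.3-fold (log2 fold change 4.72, SE 0.35, edgeR adjusted p = 3.14e-06). The constitutive enzyme *Hmox2* measured 11.91 ± 1.895 CPM in infarcts, beside 9.529 ± 0.3027 CPM in contralateral cortices (SD, n = 3 each) and was not called (log2 fold change 0.32, 95% interval -0.11 to 0.75, edgeR adjusted p = 0.165).

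Red blood cell transcripts moved in the same direction as *Hmox1* but stayed scarce. The summed level of 10 red blood cell markers was 35, 12.5 and 14.3 CPM in infarcts 1 to 3 and 2.73 to 6.69 CPM in contralateral cortices, and 3 of the 4 markers that could be tested were called higher. The order of the infarcts was 1, then 3, then 2 for both the red blood cell sum and *Hmox1*. For the macrophage sum it was 1, then 2, then 3. Among contralateral cortices, the red blood cell sum was highest in cortex 1, at 6.69 CPM. *Hmox1* and the macrophage sum were highest in cortex 3, at 2.584 and 229 CPM. The part of red blood cells or macrophages in the *Hmox1* difference was not tested.

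Iron export genes were upregulated as a pair, with the ferroxidase far ahead of the exporter. *Slc40a1* (chr1:45908068-45926523), ferroportin, measured 155.9, 144.6 and 97.26 CPM in infarcts, beside 42.47, 36.79 and 38.67 CPM in contralateral cortices. Contralateral values were tightly grouped, all 3 infarcts lay above them, and the rise was 3.37-fold (log2 fold change 1.75, SE 0.19, edgeR adjusted p = 3.22e-05).

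*Cp* (chr3:19957054-20009145) encodes ceruloplasmin, the copper-containing oxidase that prepares exported iron for transferrin. It measured 691.2, 585.3 and 398.4 CPM in infarcts, beside 29.3, 28.13 and 27.5 CPM in contralateral cortices. The 3 contralateral cortices were almost equal, while the infarcts spread over a wider range, and *Cp* rose 19.7-fold (log2 fold change 4.3, SE 0.23, edgeR adjusted p = 4.20e-07). In both *Slc40a1* and *Cp* the order of the infarcts was 1, then 2, then 3, which is also the order of the summed macrophage markers. Most of that sum was *Lyz2*, at 7853, 6830 and 4665 CPM in infarcts 1 to 3, and not every marker had this order: *Cd68* measured 123.5, 103.6 and 114.9 CPM. Some markers of other cell types had the order too: fibroblast *Dcn* measured 1492, 1266 and 928.1 CPM, and endothelial *Cdh5* 130.3, 108.5 and 85.18 CPM. Fibroblast *Col1a1* did not, at 1191, 1236 and 1258 CPM. All of these markers were picked out after their values were seen. In contralateral cortices 1 to 3 the macrophage sum was 207, 173 and 229 CPM. It was highest in cortex 3, where *Cp* was lowest by a small margin. It was lowest in cortex 2, where *Slc40a1* was lowest too. The part of macrophage or other cell content in these differences was not tested.

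The transferrin receptor was not called in either direction. *Tfrc* (chr16:32608920-32632794) measured 111.4, 132.5 and 147.4 CPM in infarcts, beside 186.4, 168.1 and 152.1 CPM in contralateral cortices. All 3 infarcts lay below all 3 contralateral cortices, although infarct 3 and contralateral cortex 3 were only narrowly apart. This separation rests on TMM scaling. As a share of reads on genes, infarct 3 (2159 of 13427057) exceeded contralateral cortex 3 (1648 of 11943570). The fitted log2 difference was -0.37 (SE 0.16, 95% interval -0.72 to -0.03, edgeR adjusted p = 0.0575), which did not pass the test. The summed neuron markers had the same order among infarcts as *Tfrc*, lowest in infarct 1 and highest in infarct 3. So did the summed oligodendrocyte markers, at 4650, 5460 and 7480 CPM. Among contralateral cortices 1 to 3 the neuron sum had the opposite order to *Tfrc*, at 7840, 8240 and 9040 CPM. The part of neuron or oligodendrocyte content in the *Tfrc* values was not tested. The adjusted p was 0.049 with limma voom and 0.0263 without infarct 3, and 0.399 with scaling to library totals.

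*Trf* (chr9:103204001-103230444), transferrin itself, is known as an abundant oligodendrocyte transcript in brain, but only 12, 23 and 22 reads were assigned to it in infarcts and 7, 5 and 3 in contralateral cortices. These low counts may not give the gene's level: 63.5% of its exon bases are shared, on the same strand, with the readthrough gene *Gm20425* (chr9:103190208-103230307), and HTSeq by its usual setting puts reads that overlap both genes aside as ambiguous. *Gm20425* had 0 counts in all 6 libraries, and ambiguous reads numbered 424960 to 712391 per library. How many of them came from *Trf* was not tested, nor why the unshared exon bases hold so few reads. On the reads that were assigned, *Trf* measured 0.9558, 1.689 and 1.502 CPM against 0.3656, 0.3256 and 0.2769 CPM, a 4.14-fold rise without overlap (log2 fold change 2.05, SE 0.46, edgeR adjusted p = 3.23e-03). Infarct 1 was the lowest infarct. Summed over 11 oligodendrocyte markers, levels were 4650, 5460 and 7480 CPM in infarcts 1 to 3 and 2390 to 2820 CPM in contralateral cortices, with 5 of the 11 called higher, and the part of oligodendrocyte content in the *Trf* difference was not tested. When at least 10 counts were required in every library, *Trf* was removed and 6 genes were called.

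The SLC11 paralogs differed in their response. *Slc11a1* (chr1:74375195-74386062) encodes NRAMP1, which pumps iron and manganese out of the phagosomes of macrophages. It measured 227.1, 144.5 and 132 CPM in infarcts, beside 2.194, 3.386 and 2.584 CPM in contralateral cortices. This was the largest fold change of the 9 tested iron genes, at 61.7-fold (log2 fold change 5.95, SE 0.29, edgeR adjusted p = 3.37e-07). All 12 macrophage markers were also called higher, with a median log2 fold change of 5.36, and infarct 1 was the highest for *Slc11a1* and for the macrophage sum. Among contralateral cortices, *Slc11a1* was highest in cortex 2, where the macrophage sum was lowest, at 173 CPM. Those *Slc11a1* values rest on only 28 to 52 counts per library. The part of macrophage content in the *Slc11a1* difference was not tested.

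*Slc11a2* (chr15:100387898-100425072) encodes DMT1, which carries iron across the endosomal membrane after uptake with transferrin. It measured 75.19, 63 and 68.52 CPM in infarcts, beside 66.86, 78.33 and 53.99 CPM in contralateral cortices. The groups overlapped, with the highest and the lowest of the 6 values both in contralateral cortices. The log2 difference was 0.05 (SE 0.17, 95% interval -0.32 to 0.43, edgeR adjusted p = 0.797). That interval leaves room for a modest change in either direction but not for a fold change of 2.

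*Hamp* (chr7:30942368-30944032), the hepcidin gene, had 0, 2 and 1 reads in infarcts and 0 in each contralateral cortex. It did not pass the filter on low counts, both groups were at or under the floor of 3 counts per library, and no fold is given. Its paralog *Hamp2* had 0 reads in all 6 libraries. At this depth hepcidin mRNA was not detectable above the floor in either region.

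Ratios between genes within each library do not depend on how libraries are scaled. The balance of ferritin chains shifted toward the light chain: the log2 ratio of *Fth1* to *Ftl1*, per kilobase of exon, was -2.47 ± 0.28 in infarcts and -0.45 ± 0.16 in contralateral cortices (SD, n = 3 each), a ratio 4.07-fold lower in infarcts. For import against export, the log2 ratio of *Tfrc* to *Slc40a1* fell from 2.64 ± 0.11 in contralateral cortices to 0.54 ± 0.55 in infarcts, a ratio 4.3-fold lower. Among infarcts this log2 ratio spread from 0.06 in infarct 1 to 1.14 in infarct 3.

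The *Slc11a1* to *Slc11a2* log2 ratio was 2.02 ± 0.33 in infarcts and -3.84 ± 0.28 in contralateral cortices, a 58.1-fold difference. The mRNA of heme oxygenase was mainly the constitutive form in contralateral cortices and mainly the inducible form in infarcts, with an *Hmox1* to *Hmox2* log2 ratio of 2.03 ± 0.04 in infarcts against -2.45 ± 0.74 in contralateral cortices. The 3 infarcts were nearly identical in that ratio, while contralateral cortex 3 stood above the other contralateral cortices. *Cp* to *Slc40a1* moved 5.81-fold upward, from -0.56 ± 0.08 to 1.98 ± 0.07. All of these 5 ratios separated the regions without overlap and reached the smallest p that 3 against 3 samples allow (exact two-sided permutation p = 0.1, adjusted over 6 ratios p = 0.12), so none could pass 0.05.

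Between the exporter and the heavy ferritin chain no difference was shown: the log2 ratio of *Slc40a1* to *Fth1* was -4.05 ± 0.55 in infarcts and -3.66 ± 0.25 in contralateral cortices, a difference of -0.39 with overlapping groups (exact two-sided permutation p = 0.4). This does not extend to the light chain, since the log2 fold change was 1.75 for *Slc40a1* and 4.11 for *Ftl1*.

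**Figure D3:**
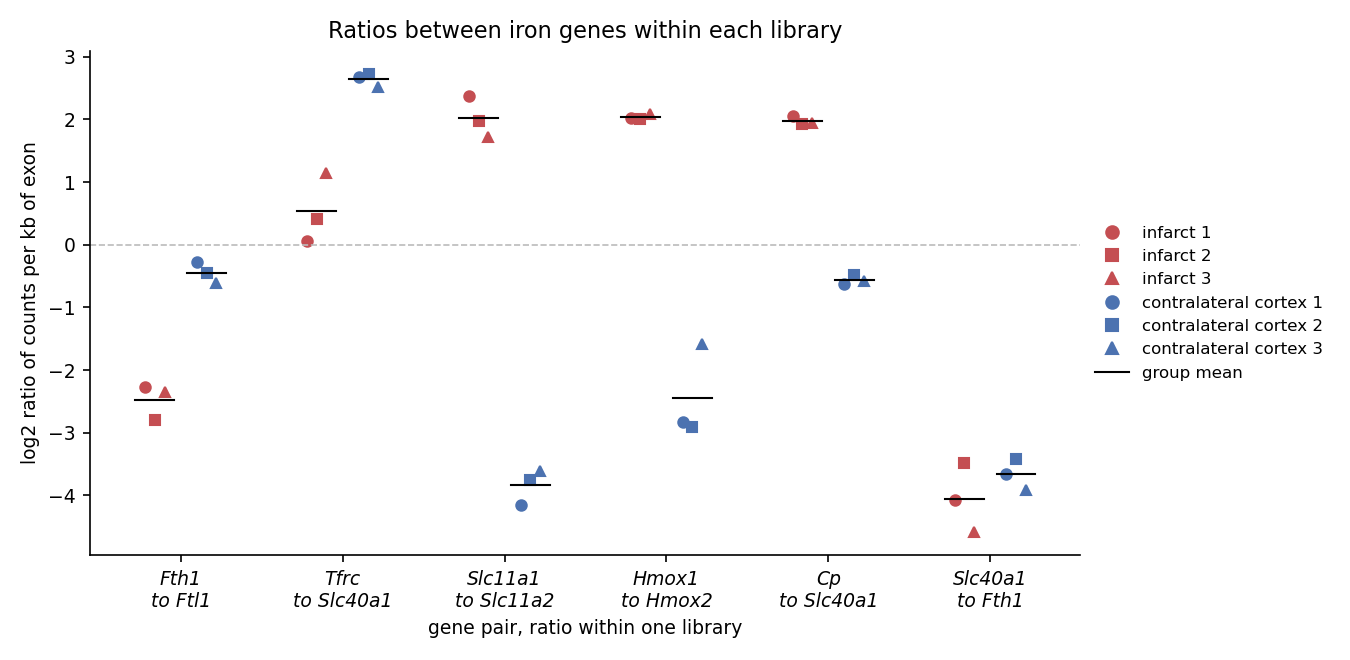
Log2 ratio of counts per kilobase of exon between pairs of iron genes, computed within each library; each point is 1 library, each black line a group mean, and the dashed line marks equal levels. Infarcts and contralateral cortices separate for 5 pairs and overlap for *Slc40a1* to *Fth1*.

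Levels can be ordered between genes only per kilobase. By all exons of a gene, the infarct order began with *Ftl1* at 1330 ± 84.9 and *Fth1* at 244 ± 58.5 CPM per kilobase (SD, n = 3). *Cp* at 41.6 to 72.3 and *Slc11a1* at 35.6 to 61.3 CPM per kilobase overlapped, as did *Hmox1* at 19.3 to 25.8 and *Tfrc* at 18 to 23.8. *Slc40a1* at 10.8 to 17.3 and *Slc11a2* at 9.92 to 11.8 CPM per kilobase also overlapped, and *Trf* and *Hamp* were below 1.

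In contralateral cortices, the order was *Ftl1* at 59.7 to 98.5, *Fth1* at 43.6 to 64.6, *Tfrc* at 24.6 to 30.1, *Slc11a2* at 8.5 to 12.3, *Slc40a1* at 4.09 to 4.72 and *Cp* at 2.87 to 3.06 CPM per kilobase. The transferrin receptor therefore stood above the exporter and the ferroxidase in contralateral cortices, and below the ferroxidase in infarcts. *Ftl1* and *Fth1* overlapped, and *Hmox1* and *Slc11a1*, the lowest apart from *Trf* and *Hamp*, overlapped as well. Some of these levels depend on the length used: by the length of the principal transcript, *Fth1* (130) stood above *Ftl1* (107 CPM per kilobase) in contralateral cortices, and *Slc40a1* (39.3) stood above *Tfrc* (26.7 CPM per kilobase) in infarcts. Differences between regions within a gene or a ratio do not depend on length.

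Beyond these 10 genes, 70 other iron and heme genes in 10 lists were counted, of which 60 were tested. Of the 60, 25 were called higher, 2 were called lower and 33 were not called, with a median log2 fold change of 0.53. Over all tested genes, as given above, 25.7% were called higher and 20.9% lower.

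**Figure D4:**
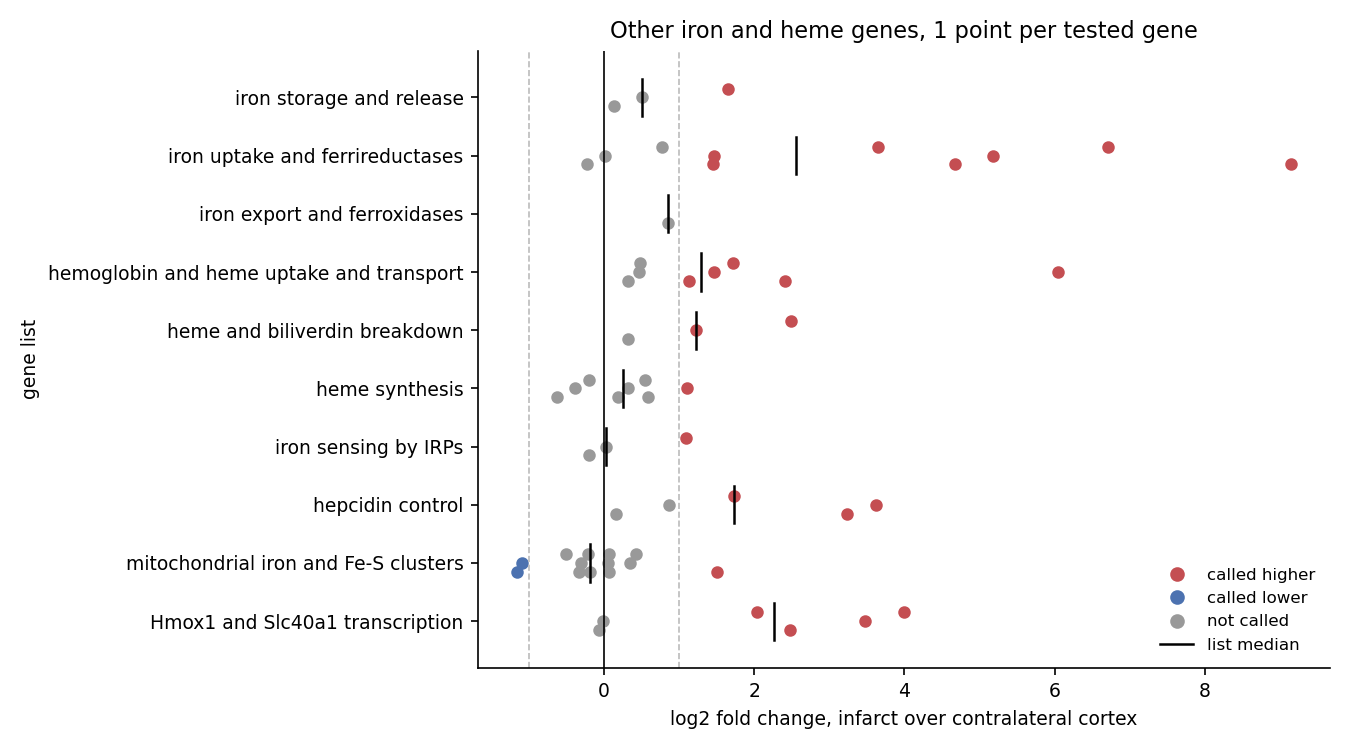
Log2 fold change of infarct over contralateral cortex for the 60 tested genes of 10 iron and heme lists; each point is 1 gene, black bars are list medians and dashed lines mark a fold change of 2. The list medians run from -0.19 for mitochondrial genes to 2.55 for uptake genes.

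Among genes for iron uptake and ferric iron reduction, 7 of 10 tested were called higher and 0 lower (median log2 fold change 2.55). The metalloreductases *Steap4* and *Steap3*, which reduce ferric iron, had the smallest p of the list. *Steap4* rose from 0.8078 ± 0.1955 CPM in contralateral cortices to 82.85 ± 17.69 CPM in infarcts (mean ± SD, n = 3 each, as in the values that follow; log2 fold change 6.71, SE 0.27, edgeR adjusted p = 1.64e-07). *Steap3* rose from 3.962 ± 1.25 to 99.35 ± 13.36 CPM (log2 fold change 4.67, SE 0.25, edgeR adjusted p = 3.93e-07). Reduction of ferric iron is the step that precedes transport by DMT1, whose gene *Slc11a2* was not called.

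For storage and release, 1 of 3 tested genes was called higher, beside 25.7% of all tested genes. *Ncoa4*, the receptor that delivers ferritin to lysosomes for iron release, rose from 36.45 ± 5.107 to 114 ± 26.23 CPM (log2 fold change 1.65, SE 0.19, edgeR adjusted p = 5.20e-05). Of the export list, only the ferroxidase *Heph* could be tested, and its 1.8-fold difference fell short of the fold threshold (log2 fold change 0.85, edgeR adjusted p = 0.0163); *Heph* was named after its values were seen.

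Of the genes for uptake and transport of hemoglobin and heme, 5 of 8 tested were called higher and 0 lower (median log2 fold change 1.29). *Flvcr1*, a heme exporter, rose from 30.14 ± 5.619 to 160.2 ± 22.35 CPM (log2 fold change 2.41, SE 0.18, edgeR adjusted p = 3.05e-06), and *Abcg2*, a transporter that also exports porphyrins, rose 2.74-fold (edgeR adjusted p = 4.79e-05). *Cd163*, the macrophage receptor for hemoglobin bound to haptoglobin, was not called, at 3.279 ± 0.9179 CPM against 2.356 ± 0.3635 CPM (log2 fold change 0.46, 95% interval -0.26 to 1.18, edgeR adjusted p = 0.228). The haptoglobin gene *Hp*, in the same list, was called higher (log2 fold change 6.04, edgeR adjusted p = 2.50e-04). It had few reads, 41, 14 and 26 in infarcts and 0, 1 and 0 in contralateral cortices. *Cd163* and *Hp* were picked out after their values were seen.

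Downstream of heme oxygenase, both biliverdin reductases were called higher: *Blvrb* rose 5.63-fold (log2 fold change 2.49, edgeR adjusted p = 1.67e-04) and *Blvra* rose 2.33-fold (log2 fold change 1.22, edgeR adjusted p = 2.57e-03). Of the heme synthesis genes, 1 of 8 tested was called higher and 0 lower (median log2 fold change 0.26), beside 25.7% of all tested genes called higher. By the adjusted p alone, 1 more gene was lower, *Alad*, the enzyme after ALA synthase, at 0.652-fold (edgeR adjusted p = 0.0228), named after its values were seen. The called gene was *Alas1*, the first enzyme of the pathway outside red blood cells, which rose 2.15-fold (edgeR adjusted p = 2.75e-04).

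Of the 3 iron sensors tested, 1 was called higher, beside 25.7% of all tested genes. *Aco1*, iron regulatory protein 1 when it lacks its iron-sulfur cluster, rose from 39.33 ± 0.7001 to 83.58 ± 5.192 CPM (log2 fold change 1.09, SE 0.13, edgeR adjusted p = 6.72e-05). The other 2 were not called, and the list's median log2 fold change was 0.03. In the list of hepcidin control, 3 of 5 tested genes were called higher. *Hfe*, which binds the transferrin receptor, rose 12.3-fold (log2 fold change 3.62, edgeR adjusted p = 2.85e-06), and *Bmp6*, a ligand that induces hepcidin in liver, rose 9.37-fold (log2 fold change 3.23, edgeR adjusted p = 9.22e-05). These stood beside a hepcidin gene at or under the floor.

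Of the mitochondrial iron and iron-sulfur cluster genes, 1 of 13 tested was called higher and 2 were called lower (median log2 fold change -0.19). Among all tested genes, 25.7% were called higher and 20.9% lower. *Isca1*, an assembly factor, fell from 198.7 ± 14.78 to 88.89 ± 1.373 CPM (log2 fold change -1.16, SE 0.13, edgeR adjusted p = 4.12e-05). The other gene called lower was *Lyrm4*, a partner of the cysteine desulfurase (log2 fold change -1.09, edgeR adjusted p = 1.59e-03), named after its values were seen. *Hscb*, a co-chaperone of cluster transfer, rose 2.83-fold (edgeR adjusted p = 1.06e-04). With scaling to library totals neither *Isca1* nor *Lyrm4* was called lower.

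In the list for transcription of *Hmox1* and *Slc40a1*, which holds transcription factors and *Keap1*, the adaptor that targets NRF2 for degradation, 4 of 6 tested were called higher and 0 lower (median log2 fold change 2.26). *Nfe2l2*, the activator NRF2, rose from 23.73 ± 0.5759 to 263.3 ± 62.48 CPM (log2 fold change 3.47, SE 0.2, edgeR adjusted p = 5.92e-07). *Bach1*, a heme-sensing repressor of the same genes, rose from 48.39 ± 1.196 to 269.3 ± 36.5 CPM (log2 fold change 2.48, SE 0.15, edgeR adjusted p = 8.86e-07). Activator and repressor mRNA therefore rose together.

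For called genes other than *Cp*, the gene with the nearest pattern over the 6 libraries was found among 9674 genes with a mean of at least 10 CPM, by the root mean square difference of centered log2 CPM. The nearest gene was *Cebpa* for *Ftl1* (0.0985), *Ndrg1* for *Fth1* (0.137), *H2-Ob* for *Hmox1* (0.165) and *Ybx3* for *Slc40a1* (0.0582). It was *Cd48* for *Slc11a1* (0.113) and, among 9675 genes, *Ackr3* for *Trf* (0.101). With 2 groups of 3 libraries, genes with a like difference between regions are near each other by this measure.

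Other marker lists describe the tissue in which these levels were measured. Homeostatic microglia markers summed to 909 to 971 CPM in infarcts, beside 294 to 343 CPM in contralateral cortices, with 4 of 8 called higher. Fibroblast and leptomeningeal markers summed to 6990 to 8710 CPM against 166 to 210 CPM, with 8 of 8 called higher. Of 9 neuron markers, 8 were called lower and 0 higher. Astrocyte markers were divided, with 2 of 8 called higher and 1 lower, and by the adjusted p alone 3 higher and 4 lower. They summed to 4770 to 6800 CPM in infarcts, beside 13900 to 14800 CPM in contralateral cortices. The gene called lower, *Slc1a2*, was the largest part of that sum, at a mean of 2933 CPM against 12300 CPM. Endothelial markers had 3 of 8 called higher and 0 lower. All 4 tested neutrophil markers were called higher, but the 7 markers of that list were scarce. They summed to 18.2 to 25.1 CPM in infarcts, beside 0.104 to 0.923 CPM in contralateral cortices. The neutrophil marker *Ly6g* had 0, 2 and 0 counts in infarcts and 0 in every contralateral cortex.

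The choroid plexus, a tissue known to express transferrin, was also examined. Its 8 markers summed to 44.7 to 55.1 CPM in infarcts, beside 7.52 to 8.12 CPM in contralateral cortices, with 3 of 5 tested called higher. The largest part of the infarct sum was *Aqp1*, at 34.09, 29.59 and 23 CPM in infarcts 1 to 3. *Kl* and *Kcnj13* were not called. These genes were named after their values were seen. The defining marker *Ttr* had 0, 3 and 3 counts in infarcts and 0 in every contralateral cortex, and *Otx2* had 1, 0 and 0 counts in infarcts and 0 in every contralateral cortex.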

How the data were processed

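The 6 deposited tables held raw counts per Ensembl gene, which the authors made by trimming with Trimmomatic 0.32, aligning to GRCm38 with STAR 2.5.2b and counting with HTSeq; libraries were stranded mRNA, and the HTSeq version, annotation and strand setting are not given in the sources used here. The 5 special entries (ambiguous, multi-mapped reads, 14.1% to 18.2% of a library, and the like) were left out of library sizes. Symbols, exon lengths and UTRs came from GENCODE mouse release 21, which matched 45229 of 46078 identifiers. Counts were fitted with edgeR 4.0.16 (TMM, filterByExpr, robust quasi-likelihood, no covariate), after a test on simulated data. DESeq2 1.42.0, limma 3.58.1 voom, other scalings and filters, a replicate block and leaving out each library were the alternatives. Nearest patterns used a prior count of 2; that of *Cp* is not reported here.

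All 10 genes were named. In each other list, the 2 called genes with the smallest p were named, and ratio partners. Genes and lists were chosen with earlier results of these data known.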

Additional observations from a re-analysis of the deposited data

How the results depend on the processing

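The count of iron genes called higher in infarcts stayed at 7 under every alternative run except a minimum of 10 counts in every library, which removed *Trf* and left 6; the count called lower was 0 under each. Leaving out 1 library gave 24 to 27 other iron and heme genes called higher and 2 to 3 called lower, and DESeq2 gave 27 and 3. Scaling to library totals moved the median log2 fold change of all tested genes from 0.03 to 0.23 and left 0 other iron and heme genes called lower. The log2 fold change of *Slc11a2*, never called, became -0.08 without contralateral cortex 3, and ranged from -0.08 to 0.18 over the leave-one-out fits. Over the 6 leave-one-out fits, *Ftl1* ranged from 3.95 to 4.32, *Hmox1* from 4.46 to 5.23 and *Slc11a1* from 5.69 to 6.14. The 6 ratios kept the direction of their difference between regions when any 1 library was left out. Length cancels in that difference, so the length of the principal transcript, an alternative chosen after seeing the data, could not change it. It did change the sign of some mean log2 ratios. *Tfrc* to *Slc40a1* in infarcts went from 0.54 to -0.54, and *Fth1* to *Ftl1* in contralateral cortices from -0.45 to 0.3.

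Deviations from the group mean had correlations of -0.19, 0.101 and 0.001 between samples that share a number. Between samples with different numbers they ran from -0.238 to 0.178. With 3 libraries per region, these values cannot decide whether samples with the same number came from 1 mouse. The labels name no pairs, and the main fit took none. With a replicate block, 7 iron genes were called higher and 0 lower. Over all genes, a minimum of 10 counts in every library gave 2789 higher and 2504 lower, a test against a fold change of 2 gave 3192 and 2329, and library totals gave 4528 and 2766. Depth limits what can be said of *Hamp* and *Trf*, and the exon bases that *Trf* shares with another gene limit it further.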
